A study of Homo sapiens with 3 samples.

Results

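ATF4 and the effectors of the integrated stress response were followed as 10 RefSeq transcripts of 9 genes, out of 25443 transcripts listed in at least 1 library. The transcripts were chosen by a fixed list of RefSeq identifiers: ATF4 NM_001675 and NM_182810, DDIT3 NM_004083, ATF3 NM_001674, ATF5 NM_012068, XBP1 NM_005080, TRIB3 NM_021158, CHAC1 NM_024111, SESN2 NM_031459 and DDIT4 NM_019058. The list was selected on the RPKM values of these 3 libraries, so every value given here for these transcripts is a description and carries no test. Polyadenylated RNA was sequenced from HEK293T, a human embryonic kidney line that the labels give as HEK 293. This is an established epithelial line, so the values are those of 1 cell line in culture and not of kidney tissue. The 3 conditions were the negative control, which by the treatment protocol was grown without either agent although its own label is ambiguous, 1 mM DMSO, an organic solvent, and 1 µM BDE-209, a brominated flame retardant, added in the same DMSO for 48 h. Each condition was 1 library, so the BDE-209 library carries both agents, no comparison has a replicate, and variation between cultures could not be measured.

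The integrated stress response begins when 1 of 4 kinases phosphorylates the alpha subunit of the initiation factor eIF2, which lowers protein synthesis as a whole while raising translation of the ATF4 mRNA through upstream open reading frames in its leader. ATF4 is a basic leucine zipper factor that binds, often with a C/EBP partner, to genes of amino acid supply, tRNA charging and cell fate. Much of its regulation is at the level of translation, which a measurement of RNA does not read. XBP1 belongs to a neighbouring branch, the unfolded protein response of the endoplasmic reticulum, in which the kinase and nuclease IRE1 cuts a short piece out of the XBP1 mRNA and so shifts the reading frame to a more active factor.

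The piece that IRE1 removes is shown first because it decides what the XBP1 values can be read as. It is 26 bases long and lies in coding sequence on the minus strand. The annotated gap of the spliced form is at chr22:29192116-29192141 of hg19, in capitals below between 12 bases on either side. The letters GCAG open the capitals and also follow them, so a stretch of 26 bases that starts later leaves the same spliced sequence. The capitals therefore do not fix the exact ends of the piece that IRE1 removes. The spliced form is printed without the capitals.

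XBP1 unspliced: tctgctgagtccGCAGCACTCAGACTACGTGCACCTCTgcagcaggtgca

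XBP1 spliced: tctgctgagtccgcagcaggtgca

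Promoter windows of RefSeq, from 250 bases before to 50 bases after each start in GRCh38.p14, were searched on both strands for 4 motifs, since members of this group are known to act on each other's promoters. The 9 genes had 17 windows. The composite site that ATF4 forms with C/EBP factors (CARE, TGATGNAA) was in windows of ATF3 and CHAC1, and in 3.62% of all 35116 windows. The cAMP response element (TGACGTCA, in 1.85% of windows) and the unfolded protein response element (TGACGTGG, in 0.729%) were in none of the 17. The endoplasmic reticulum stress element (ERSE, CCAAT, then 9 bases, then CCACG, in 0.0769% of windows) was in XBP1. The matches are printed with the motif in capitals, on the strand on which it reads. A match is a match of letters and no evidence of binding, and the files hold no binding data.

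ATF3 CARE at chr1:212565216-212565223, plus strand: ggtcaggaTGATGGAAggctgtca

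CHAC1 CARE at chr15:40953262-40953269, minus strand: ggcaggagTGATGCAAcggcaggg

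XBP1 ERSE at chr22:28800603-28800621, minus strand: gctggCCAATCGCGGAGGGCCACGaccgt

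Expression is given as deposited, in RPKM (reads on a transcript divided by its length in kb and by the size of the library), with the read count behind each value, which was recovered from the steps in the RPKM values as the smallest that fits and is a lower bound. The recovered totals were 4843623 reads for the control, 4782044 for DMSO and 4676793 for BDE-209, so that 1 read on a transcript of 1 kb was worth 0.2065 to 0.2138 RPKM. These are the totals that the RPKM values were divided by, and not all uniquely mapped reads. Intervals are exact 95% intervals from these reads (Poisson for a level, Clopper-Pearson for a ratio), they cover counting error only, and the 27 intervals of member ratios are not adjusted for their number. Of 9 markers of HEK293 cells fixed for this report 8 had a mean of at least 1 RPKM, while PAX2 was missing from the 3 lists. Of 14 markers of other cell types 2 reached that level, COL1A1 and LRP2, and 8 were missing from the 3 lists. The other-cell markers summed to 8.92 RPKM in the control, 8.86 in DMSO and 8.63 in BDE-209, and the HEK293 markers to 502, 497 and 452 RPKM. The part of the lower sum in BDE-209 in the values below was not tested.

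ATF4 was among the most abundant mRNAs of these cells in every library. The transcript NM_182810 was at 749 RPKM in the control (5154 reads), 848 in DMSO (5760 reads) and 843 in BDE-209 (5599 reads), which ranked it 97, 82 and 79 from the top of the 3 lists. The transcript NM_001675 was at 509 RPKM (4982 reads), 575 (5557 reads) and 573 (5417 reads). Both rows were lowest in the control and nearly level between DMSO and BDE-209. NM_001675 was 1.13-fold higher in DMSO than in the control (interval 1.09 to 1.17) and 1.13-fold higher in BDE-209 than in the control (1.08 to 1.17). Between BDE-209 and DMSO its log2 ratio was -0.0047, with an interval from -0.059 to 0.0495. In bulk RNA, fewer cells that express a gene and less of its RNA per cell cannot be told apart, here and for all values that follow.

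Both ATF4 rows cannot be read as separate isoforms. The gene lies on chr22:39915700-39918688 of hg19, plus strand, and the lengths recovered from the RPKM values were 2022 bases for NM_001675 and 1420 bases for NM_182810. They differ by 602 bases, which is the length of the first annotated ATF4 intron at chr22:39916757-39917358. The shorter row nevertheless held more reads, by 172 in the control, 203 in DMSO and 182 in BDE-209, so the rows count nearly the same reads and the higher RPKM of NM_182810 comes with its smaller length. NM_001675 had 3.34%, 3.52% and 3.25% fewer reads than NM_182810 in the 3 libraries. The pair is therefore 1 measurement given as a pair of rows wherever members are counted.

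**Figure D1:**
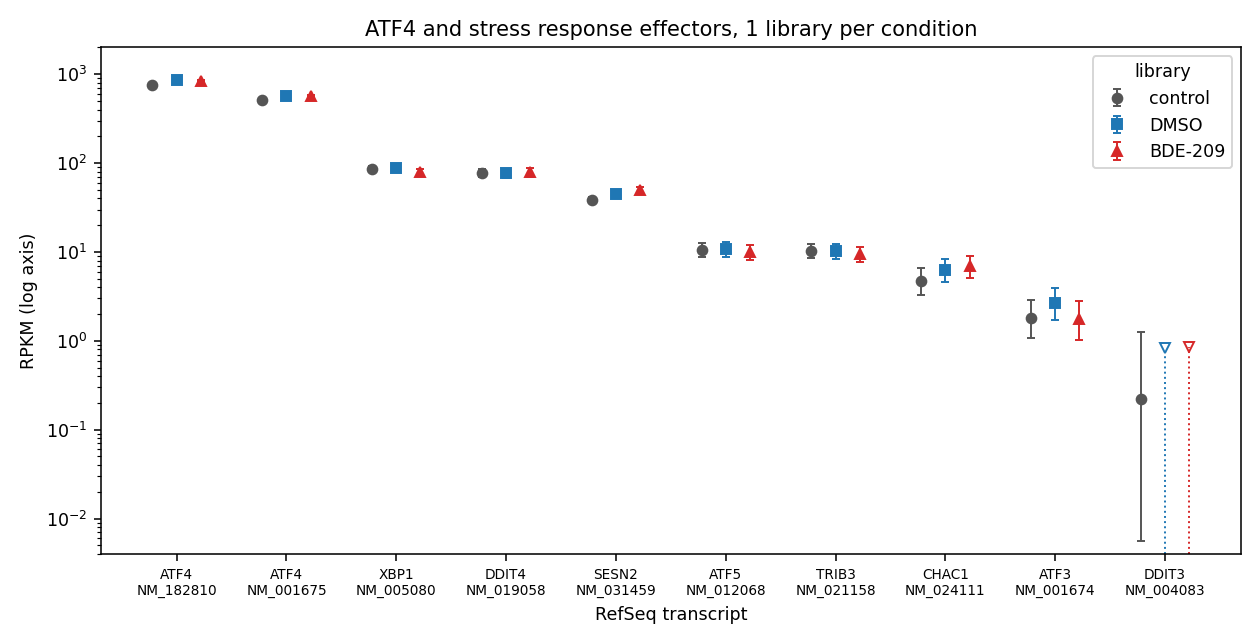
RPKM on a log axis (vertical) of the 10 transcripts (horizontal) in the control (circles), DMSO (squares) and BDE-209 (triangles) libraries, with exact 95% Poisson intervals from the recovered reads. Open triangles mark the upper limit where a transcript was missing from a list. ATF4 sits between 509 and 848 RPKM and DDIT3 at 0.223 RPKM or missing, and within each transcript the 3 libraries lie close together on this scale.

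XBP1 came next in level. NM_005080 was at 86.8 RPKM in the control (765 reads), 88.2 in DMSO (768 reads) and 79.3 in BDE-209 (675 reads), so BDE-209 was the lowest of the 3 libraries. BDE-209 was at 0.899 of DMSO, with an interval from 0.809 to 0.998 that only just excludes 1, and at 0.914 of the control, with an interval from 0.823 to 1.01 that includes it. The other listed XBP1 row, NM_001079539, is the RefSeq record of the spliced form, and it was at 86.5, 87.6 and 78.8 RPKM. It had only 7, 10 and 8 reads fewer than NM_005080 in the 3 libraries, so the rows share nearly all of their reads and the near equality of their RPKM does not measure how much XBP1 was spliced. The gene lies on chr22:29190543-29196585 of hg19, minus strand.

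**Figure D2:**
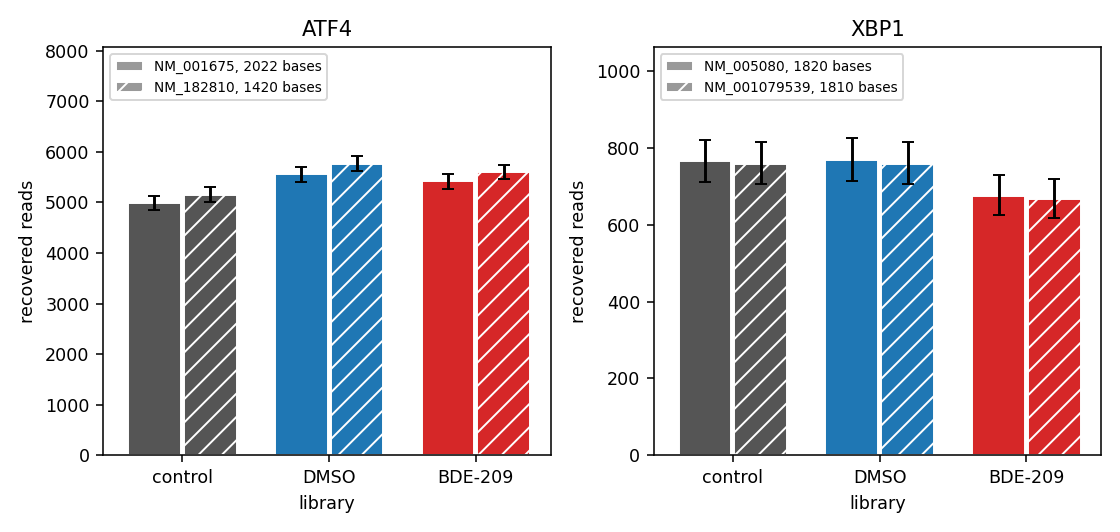
Recovered reads (vertical, from 0) of both ATF4 rows (left) and both XBP1 rows (right) in the 3 libraries (horizontal), solid and hatched bars standing for the rows, with exact 95% Poisson intervals. The ATF4 rows differ by 602 bases in length yet by only 172 to 203 reads, and the XBP1 rows by 7 to 10 reads.

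DDIT3 held almost no reads in these files. The gene, which encodes the factor CHOP and is often read as a marker of a lasting response, was at 0.223 RPKM in the control, from 1 read, and its member row was missing from the DMSO and BDE-209 lists. Zero reads on its 924 bases allow up to 0.835 RPKM in DMSO and 0.854 in BDE-209 by the Poisson interval, and no ratio was computed. Another DDIT3 row, NM_001195056, had 6, 1 and 4 reads, and the third, NM_001195053, had 1, 0 and 0. These rows may not stand for the amount of CHOP mRNA, because genes in general use were also nearly empty. The highest row of LDHA, which encodes a lactate dehydrogenase subunit, held 6, 10 and 4 reads, that of SHMT2, which encodes the mitochondrial serine hydroxymethyltransferase, held 2, 0 and 0, and that of ASNS, asparagine synthetase, held 12, 11 and 12. GAPDH held 13479, 13467 and 12644 reads. LDHA, SHMT2, ASNS and GAPDH were picked after their values were seen. DDIT3 lies on chr12:57910371-57915520 of hg19, minus strand, and overlaps MARS1 on the other strand, which held 1496, 1628 and 1505 reads. Whether the counting used strand is not given in the sources used here, and what left these rows nearly empty was not tested.

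ATF3, a basic leucine zipper factor induced by ATF4, was near the limit of what this depth can measure. NM_001674 was at 1.81 RPKM in the control (18 reads), 2.65 in DMSO (26 reads) and 1.77 in BDE-209 (17 reads), so DMSO was the highest. The ratio of DMSO to the control was 1.46, with an interval from 0.772 to 2.83, and that of BDE-209 to DMSO was 0.669, with an interval from 0.340 to 1.28. A difference of these sizes was not detectable at this depth. The other ATF3 rows were as sparse, with 18, 24 and 20 reads for NM_001040619 and 3, 7 and 2 for NM_001030287.

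ATF5, a relative of ATF4 whose translation also depends on upstream open reading frames, was at 10.6 RPKM in the control (118 reads), 10.7 in DMSO (117 reads) and 9.88 in BDE-209 (106 reads). The 3 libraries were close, and the log2 ratio of BDE-209 to DMSO was -0.11 with an interval from -0.50 to 0.28. The other ATF5 row, NM_001193646, was at 11.9, 11.3 and 10.9 RPKM, with 120, 113 and 106 reads. The gene lies on chr19:50431959-50437192 of hg19 and overlaps IL4I1 and NUP62 on the other strand.

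SESN2 was the member whose counting intervals excluded 1 in the 3 comparisons. It encodes sestrin 2, an ATF4 and p53 target that holds back the growth kinase complex mTORC1. NM_031459 was at 38.4 RPKM in the control (651 reads), 44.4 in DMSO (743 reads) and 50.2 in BDE-209 (822 reads), so each library lay above the one before in this order. It was 1.16-fold higher in DMSO than in the control (interval 1.04 to 1.29), 1.13-fold higher in BDE-209 than in DMSO (1.02 to 1.25) and 1.31-fold higher in BDE-209 than in the control (1.18 to 1.45). With the uniquely mapped reads of each library as its total, an alternative chosen after the data were seen, the log2 ratio of BDE-209 to DMSO was 0.14 with an interval from -0.0064 to 0.28 that includes 0, while both ratios to the control stayed above it. These 3 ratios come from 3 libraries and are not independent of one another. The gene lies on chr1:28586029-28609002 of hg19, plus strand, and has 1 row.

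CHAC1, an enzyme that degrades glutathione and a target of ATF4 and ATF3, showed the same order on far fewer reads. NM_024111 was at 4.71 RPKM in the control (36 reads), 6.23 in DMSO (47 reads) and 6.91 in BDE-209 (51 reads). BDE-209 was 1.47-fold above the control, with an interval from 0.939 to 2.31 that includes 1. The other CHAC1 row, NM_001142776, gave 4.58, 5.94 and 6.96 RPKM, with 32, 41 and 47 reads. CHAC1 lies on chr15:41245160-41248710 of hg19, plus strand.

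TRIB3 and DDIT4 stayed within counting error in the 3 comparisons. TRIB3, a pseudokinase that is induced by ATF4 and CHOP and dampens them in turn, was at 10.3 RPKM in the control (123 reads), 10.2 in DMSO (120 reads) and 9.44 in BDE-209 (109 reads). The log2 ratio of BDE-209 to the control was -0.12 with an interval from -0.51 to 0.26. DDIT4, which encodes the mTORC1 inhibitor REDD1, was at 77.8 RPKM (330 reads), 76.4 (320 reads) and 78.4 (321 reads). Its log2 ratio was -0.03 for DMSO against the control, with an interval from -0.25 to 0.20, 0.04 for BDE-209 against DMSO, with an interval from -0.19 to 0.26, and 0.011 for BDE-209 against the control, with an interval from -0.22 to 0.24. The last leaves out a log2 ratio of the size seen for SESN2 in that comparison, 0.39. The smallest length that fits DDIT4 was 876 bases and the annotated one is 1748, so its true reads may be 2 times these and its intervals narrower. TRIB3 lies on chr20:343479-378203 and DDIT4 on chr10:74033678-74035794 of hg19, both on the plus strand.

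Per length, the order of levels was the same in the 3 libraries: ATF4, XBP1, DDIT4, SESN2, ATF5, TRIB3, CHAC1, ATF3 and DDIT3, taking NM_001675 for ATF4. ATF4 NM_001675 exceeded XBP1 by 5.86-fold in the control, 6.51-fold in DMSO and 7.22-fold in BDE-209. ATF5 and TRIB3 could not be ordered in any library, since their RPKM ratio was 1.03 in the control with an interval from 0.796 to 1.34, and 1.05 in both other libraries. XBP1 and DDIT4 could not be ordered in the control (ratio 1.12, interval 0.979 to 1.27) or in BDE-209 (1.01, 0.885 to 1.16), nor TRIB3 and CHAC1 in BDE-209 (1.37, 0.971 to 1.94). DDIT3 stands last only by its member row and its place is not a measured level, since NM_001195056 was at 1.04 RPKM in the control. Apart from it, the other neighbours in this order differed beyond counting error in each library.

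**Figure D3:**
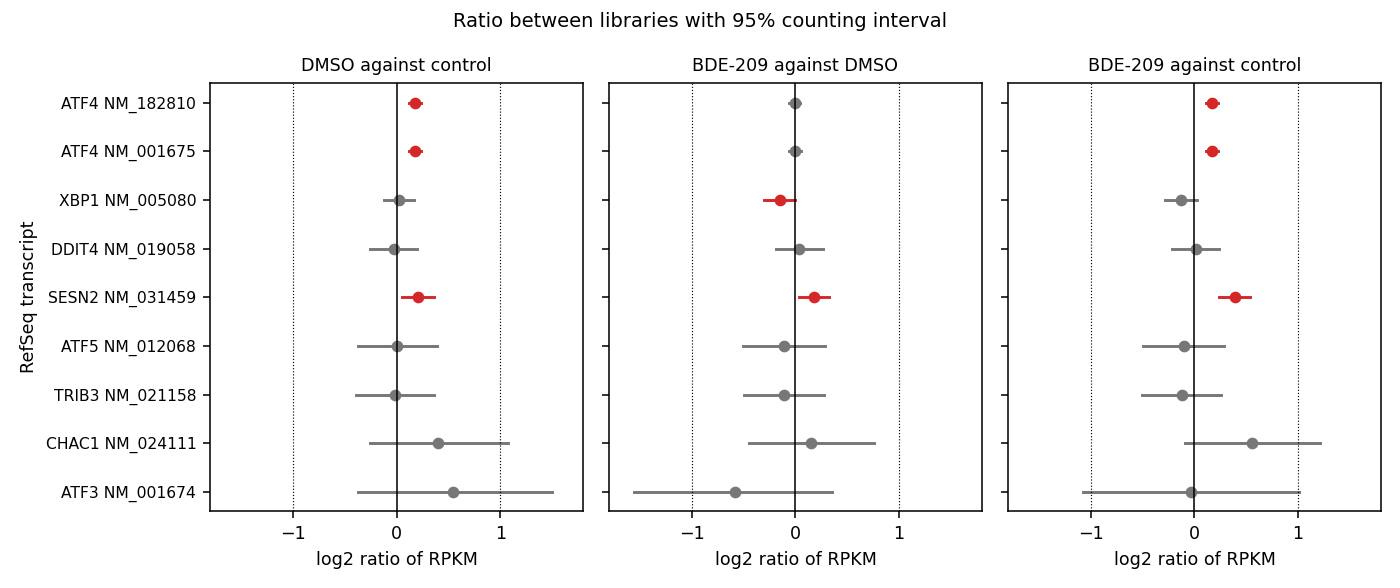
Log2 ratio of RPKM (horizontal) for the 9 transcripts with a mean of at least 1 RPKM (vertical), for DMSO against the control, BDE-209 against DMSO and BDE-209 against the control, with exact 95% counting intervals. Red marks an interval that excludes 0 on this scale, and dotted lines mark 2-fold. SESN2 lies above 0 in the 3 panels, ATF4 in both comparisons with the control, and the interval of XBP1 lies below 0 for BDE-209 against DMSO but reaches above it for BDE-209 against the control.

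Of the 10 transcripts 9 had a mean of at least 1 RPKM, DDIT3 being the exception, and 0 of these 9 differed by 2-fold, the study's threshold for fold change, in any comparison. Over all 15570 transcripts at that level the share was 1.66% for DMSO against the control, 1.70% for BDE-209 against DMSO and 1.66% for BDE-209 against the control. At 1.5-fold the count was also 0, against 6.29%, 6.08% and 6.11% of all transcripts. ATF3 came close to that cut, at a log2 ratio of 0.55 for DMSO against the control and -0.58 for BDE-209 against DMSO. With uniquely mapped reads as library totals these were 0.59 and -0.62, both past 1.5-fold, with intervals that include 0. A counting interval that excluded 1 was found for 3 members in DMSO against the control, both ATF4 rows and SESN2, all higher in DMSO, where 8.55% of all transcripts had one. It was found for 2 in BDE-209 against DMSO, SESN2 higher and XBP1 lower in BDE-209, against 5.84% of all. It was found for 3 in BDE-209 against the control, again both ATF4 rows and SESN2, all higher in BDE-209, against 9.04% of all. With uniquely mapped reads as library totals the counts were 3, 1 and 3, beside 10.5%, 7.39% and 9.02% of all transcripts. The members were chosen with these values in view, so nothing is read from these shares.

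Narrow intervals come with depth, and 4 members had a mean of at least 500 reads (both ATF4 rows, XBP1 and SESN2). These 4 hold every interval that excluded 1. Among the 2883 transcripts of that depth 18.3% had an interval excluding 1 for DMSO against the control, 10.6% for BDE-209 against DMSO and 20.5% for BDE-209 against the control. The cut at this depth was chosen after the data were seen. The median log2 ratio of the 9 members was 0.18 for DMSO against the control (0.0055 over all transcripts), -0.0088 for BDE-209 against DMSO (-0.00031) and 0.011 for BDE-209 against the control (0.0033), the last turning to -0.0076 under upper quartile scaling. The first is the value of an ATF4 row, and with 1 transcript per gene it was 0.10.

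Genes around ATF4 were taken from 5 lists with 1 transcript per gene. The lists were chosen with earlier results of these data known, so nothing is read from their counts beside the shares of all transcripts. Of the 12 genes of eIF2 kinases, eIF2B and the eIF2 phosphatase, which set the response in motion or end it, 0 differed by 1.5-fold in any comparison. An interval excluded 1 for 1 of 12 in DMSO against the control, 2 in BDE-209 against DMSO and 1 in BDE-209 against the control, beside 8.55%, 5.84% and 9.04% of all transcripts. Among those with a mean of at least 500 reads, as 3 of these 12 had, the shares were 18.3%, 10.6% and 20.5%. The gene in DMSO against the control was EIF2B3, a subunit of the eIF2 exchange factor, at 35.2, 28.3 and 32.4 RPKM in control, DMSO and BDE-209. That in BDE-209 against the control was the kinase gene EIF2AK4, named after its value was seen, at 19.1, 21.5 and 21.9 RPKM. Its log2 ratio was 0.19 with an interval from 0.017 to 0.37. PPP1R15A, the phosphatase subunit GADD34 that reverses eIF2 phosphorylation, was at 12.1 RPKM in the control (141 reads), 14.1 in DMSO (162 reads) and 9.72 in BDE-209 (109 reads). It was the lowest in BDE-209, with a log2 ratio to DMSO of -0.54 and an interval from -0.90 to -0.18. EIF2AK3, which encodes the endoplasmic reticulum kinase PERK, was at 6.28 RPKM (142 reads), 5.74 (128 reads) and 7.29 (159 reads), with an interval of the ratio of BDE-209 to DMSO from 1.00 to 1.62 that barely excludes 1. It was named after its value was seen. EIF2B4, another subunit of the exchange factor, had 13, 11 and 10 reads.

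Among the 18 genes of amino acid synthesis and transport that ATF4 is known to act on, 16 had a mean of at least 1 RPKM. Counting intervals lay above 1 for 9 of the 16 in DMSO against the control and for 7 in BDE-209 against the control, and below 1 for 0 in either. Between BDE-209 and DMSO 0 lay above and 1 below. Over all transcripts an interval excluded 1 for 8.55%, 9.04% and 5.84% in that order, and among those with a mean of at least 500 reads, as 10 of these 16 had, for 18.3%, 20.5% and 10.6%. The median log2 ratios of the list were 0.19, 0.23 and -0.0054 in that order. This list was chosen with earlier results of these data known, so nothing is read from these shares or medians. CTH, which makes cysteine from cystathionine, was at 3.38 RPKM in the control (35 reads), 6.94 in DMSO (71 reads) and 5.70 in BDE-209 (57 reads), and its ratio of DMSO to the control was 2.05 with an interval from 1.35 to 3.17. SLC7A11, the cystine importer, was at 11.7, 16.5 and 16.6 RPKM (548, 759 and 750 reads), with a log2 ratio of 0.49 for DMSO and 0.50 for BDE-209 against the control. PSAT1, an enzyme of serine synthesis, was at 124, 158 and 158 RPKM. These 3 genes were lowest in the control, but they were named for the size of their ratios to it. Of the 16 genes, 12 lay above the control and 4 below in DMSO, and 13 above and 3 below in BDE-209. Both comparisons with the control share that 1 library, so the second is not a repeat of the first.

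Of the 20 cytosolic aminoacyl-tRNA synthetases, which charge tRNAs and many of which are ATF4 targets, 19 had a mean of at least 1 RPKM. Intervals lay above 1 for 9 and below 1 for 2 in DMSO against the control, above for 6 and below for 2 in BDE-209 against the control, and above for 0 and below for 2 in BDE-209 against DMSO. The shares with an interval on either side were 8.55%, 9.04% and 5.84% of all transcripts, and 18.3%, 20.5% and 10.6% of those with a mean of at least 500 reads, as 15 of these 19 had. GARS1, which charges glycine tRNA, was at 176, 203 and 194 RPKM, with a log2 ratio of DMSO to the control of 0.21 and an interval from 0.13 to 0.29. SARS1, which charges serine tRNA, was at 141, 165 and 156 RPKM, with an interval from -0.04 to 0.49 for the same ratio. That interval rests on 223, 257 and 238 reads, the smallest that fit, where GARS1 had 2349, 2678 and 2503 at a similar RPKM. The true reads of SARS1 may be more and its interval narrower, and the counts for this list may then be too low. WARS1, which charges tryptophan tRNA, ran the other way at 4.89, 3.14 and 2.57 RPKM (63, 40 and 32 reads), with a log2 ratio of BDE-209 to the control of -0.93 and an interval from -1.59 to -0.29. Its row was sparse for this list, as was that of CARS1 at 0.404, 0.327 and 0.251 RPKM. Like the DDIT3 rows, these may not stand for the amount of their mRNA. The list medians were 0.10, 0.052 and -0.03 for DMSO against the control, BDE-209 against the control and BDE-209 against DMSO. As for the amino acid list, nothing is read from the shares or medians of this list.

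The list of bZIP partners and further effectors held 26 genes, of which 20 had a mean of at least 1 RPKM. Intervals lay above 1 for 3 and below 1 for 1 in DMSO against the control, above for 5 and below for 0 in BDE-209 against the control, and above for 1 and below for 1 in BDE-209 against DMSO, where 8.55%, 9.04% and 5.84% of all transcripts had an interval on either side. Among those with a mean of at least 500 reads, as 5 of these 20 had, the shares were 18.3%, 20.5% and 10.6%. The gene below 1 in BDE-209 against DMSO was PPP1R15A, which is also on the eIF2 list and was counted there. SESN1, a sestrin like SESN2, stood apart from it: it was at 1.61 RPKM in the control (25 reads), 0.521 in DMSO (8 reads) and 1.33 in BDE-209 (20 reads). DMSO was the lowest, at a log2 ratio of -1.63 to the control (interval -2.98 to -0.43), while SESN2 was lowest in the control. TNFRSF10B, a death receptor that CHOP is known to induce, had 17, 24 and 22 reads, and CEBPD, a C/EBP factor, had 9, 7 and 13.

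The IRE1-XBP1 and ATF6 list, which holds the sensors, chaperones and degradation factors of the endoplasmic reticulum, had 20 of 20 genes at a mean of at least 1 RPKM and medians near 0, at -0.03 for DMSO against the control, 0.02 for BDE-209 against DMSO and -0.0045 for BDE-209 against the control. Intervals lay above 1 for 1 and below 1 for 4 in the first of these, on either side for 0 in the second, and above for 2 and below for 3 in the third, beside 8.55%, 5.84% and 9.04% of all transcripts on either side. Among those with a mean of at least 500 reads, as 7 of these 20 had, the shares were 18.3%, 10.6% and 20.5%. ERN1, which encodes IRE1 itself, was at 1.75 RPKM in the control (34 reads), 2.66 in DMSO (51 reads) and 3.36 in BDE-209 (63 reads), and BDE-209 was 1.92-fold above the control (interval 1.25 to 3.00). XBP1, the mRNA that IRE1 cuts, was by contrast lowest in BDE-209. MANF, a secreted protein of the endoplasmic reticulum induced by XBP1 and ATF6, was at 89.3, 74.2 and 71.9 RPKM (419, 344 and 326 reads), with a log2 ratio of BDE-209 to the control of -0.31 (interval -0.52 to -0.10). SDF2L1, a chaperone cofactor, was at 18.9, 18.1 and 14.4 RPKM.

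**Figure D4:**
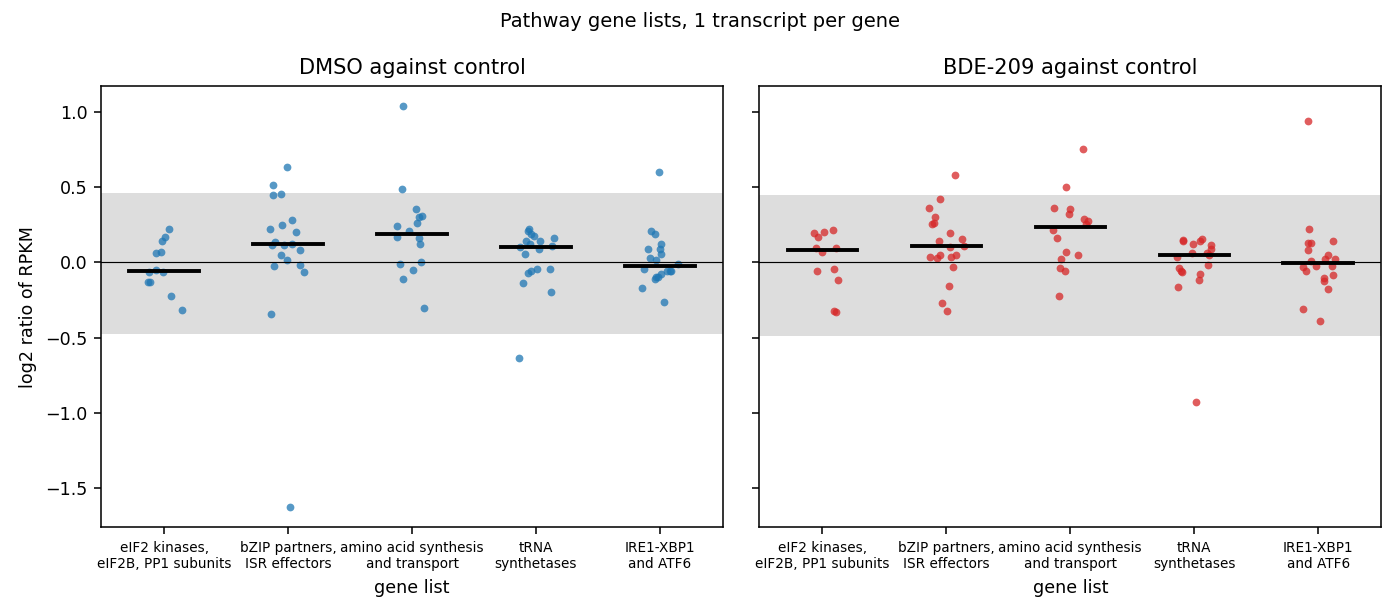
Log2 ratio of RPKM to the control (vertical) for DMSO (left) and BDE-209 (right), 1 point per gene with a mean of at least 1 RPKM in the 5 lists (horizontal). Black bars are list medians and the grey band spans the 5th to 95th percentile of all transcripts (-0.47 to 0.46 for DMSO, -0.48 to 0.44 for BDE-209). The median of the amino acid list lies at 0.19 and 0.23, inside the band, and that of the IRE1-XBP1 and ATF6 list near 0.

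The genes whose pattern over the 3 libraries was most like that of ATF4 NM_001675 were found by the Euclidean distance between log2 ratios, among 6219 other genes with a mean of at least 10 RPKM. The nearest were TRAPPC11 at 12.2, 13.8 and 13.8 RPKM, LRBA at 24.3, 27.4 and 27.4, EFR3A at 13.1, 14.8 and 14.7, VPS11 at 15.7, 17.9 and 17.7, and CDCA7 at 54.9, 61.7 and 61.9. With 3 libraries such a pattern is common: 182 genes, or 2.93%, lay within a distance of 0.05. The distance of the nearest, TRAPPC11, was 0.0045 on 270, 302 and 294 reads. The interval of ATF4 NM_001675 itself for DMSO against the control ran from 0.12 to 0.23 on the log2 scale. The ranking of these genes is therefore inside counting error.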

How the data were processed

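Single-end reads of 49 bases from 3 polyA RNA libraries were aligned to hg19 by the authors with SOAPaligner. Reads that mapped to 1 place were kept, and the deposited values are RPKM for each RefSeq transcript. How reads shared by isoforms were assigned, the RefSeq release and the use of strand are not given in the sources used here. Transcripts missing from a list were set to 0. Totals, lengths and read counts were recovered from the steps of the deposited RPKM values, for 99.97% of transcripts, taking the lowest whole numbers that satisfy the 3 libraries together, and are lower bounds, which widens the intervals. The recovery was tested on simulated data. Groups came from the treatment labels. Ratios are plain RPKM ratios, and intervals cover counting error only. PCR copies are not independent molecules. With 1 library per condition no test was run, and NOISeq, which the authors used, was not.

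The members and lists were chosen with earlier results of these data known. All members were named, with the 3 genes of each list with the largest summed absolute log2 ratios to the control among those with a mean of at least 1 RPKM, and the 5 genes nearest to ATF4. Symbols came from a RefSeq table of GRCh38.p14 and matched 96.0% of transcripts, positions from GENCODE 44 on hg19, and promoter sequences from RefSeq on GRCh38.p14. Alternatives were an addition of 0.5 or 1 to each RPKM, median-of-ratios and upper quartile scaling, no filter or a mean of at least 5 RPKM, 1 transcript per gene, other call rules, and the uniquely mapped reads of each library as its total, which were taken from the study's supplement and are not printed. Software was Python 3.11.15 with matplotlib 3.10.9, pandas 2.3.3, scipy 1.17.1 and numpy 2.4.6.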

Additional observations from a re-analysis of the deposited data

How the results depend on the processing

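The count of members past 2-fold was 0 in the 3 comparisons under every scaling, addition, filter and 1-transcript-per-gene alternative and at 1.5-fold. The 1.5-fold cut was counted with the main totals only. With uniquely mapped reads as totals ATF3 passed it for DMSO against the control, at 0.59, and for BDE-209 against DMSO, at -0.62. Under the counting-interval rule it was 3 for DMSO against the control, 2 for BDE-209 against DMSO and 3 for BDE-209 against the control. A minimum of 500 reads, chosen after seeing the data, could not change these counts. The 4 members at that depth hold every interval that excluded 1. The median log2 ratio of the members for DMSO against the control was 0.18, and it was 0.10 with a mean of at least 5 RPKM and 0.101 with 1 transcript per gene, each over 8 members. That for BDE-209 against the control, 0.011, was 0.090 with a mean of at least 5 RPKM, -0.0076 under upper quartile scaling and -0.011 with 1 transcript per gene, and that for BDE-209 against DMSO, -0.0088, was -0.034 with 1 transcript per gene. With uniquely mapped reads as library totals, chosen after seeing the data, the counting-interval rule gave 3, 1 and 3 members, SESN2 in BDE-209 against DMSO being the one lost, and log2 ratios shifted by 0.04, -0.04 and 0.0022 for DMSO against the control, BDE-209 against DMSO and BDE-209 against the control. The planned scalings and additions shift ratios by little beside the counting intervals, so staying inside them was nearly fixed in advance. Of 108 member ratios under them 108 stayed within their own counting interval. Of these 2, neither with an interval excluding 0, changed sign, both under upper quartile scaling: ATF5 for DMSO against the control, from 0.0062 to -0.014, and DDIT4 for BDE-209 against the control, from 0.011 to -0.0076. With uniquely mapped reads as totals, TRIB3 (from -0.017 to 0.024) and DDIT4 (from -0.026 to 0.016) changed sign for DMSO against the control. DDIT4 also did so for BDE-209 against DMSO (from 0.037 to -0.0028), and none of these intervals excluded 0. In addition, the scalings moved the median of all transcripts by at most 0.020 on the log2 scale. For DDIT3 the highest of its 3 rows had 6, 1 and 4 reads, against 1, 0 and 0 for the member row. Leaving out a library was not possible with 1 per condition. Few reads leave wide intervals for ATF3 and CHAC1, and what left DDIT3 nearly empty was not tested.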

Other observations

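STC2, a secreted glycoprotein on the list of further effectors, was at 33.0 RPKM in the control, 39.2 in DMSO and 39.4 in BDE-209, and EIF4EBP1, a repressor of cap-dependent translation, at 166, 191 and 185 RPKM. MTHFD2, an enzyme of mitochondrial one-carbon metabolism on the amino acid list, was at 109 RPKM (584 reads), 135 (713 reads) and 134 (690 reads). HSPA5, the chief chaperone of the endoplasmic reticulum, was at 148 RPKM in the control, 132 in DMSO and 138 in BDE-209, so it was highest in the library where ATF4 was lowest. NUPR1, a stress-induced chromatin cofactor, was listed at 0.234, 0.710 and 1.45 RPKM, from 1, 3 and 6 reads, and the interval of the ratio of BDE-209 to the control ran from 0.754 to 286. These 5 genes were picked after their values were seen, and none was tested.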
